A study of Mus musculus with 6 samples.

Results

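Of 24082 gene symbols on the arrays, 9 were examined as genes of the cerebellar granule neuron lineage, Atoh1, Neurod1, Neurod2, Barhl1, Barhl2, Pax6, Cntn2, Cbln1 and Reln. They were chosen by name and are read by 14 of the 55681 probes, with 2 probes for each of 5 genes and 1 probe for each of the other 4. The 6 arrays hold RNA of 2 magnetically sorted cell fractions of the neonatal cerebellum of wild-type CD1 mice, at postnatal days 1 to 3 by the labels. The methods name another strain background for wild-type mice. For the array samples they give an age range that begins and ends earlier. In each fraction there are 3 samples that the labels call biological replicates, each of 50000 cells, and cerebella of either sex were pooled before dissociation. A+/G+ cells carry the astrocyte antigen ACSA-2 and the glutamate transporter GLAST and were obtained with beads against ACSA-2 in a single step. A-/G+ cells lack ACSA-2 and carry GLAST, and were obtained with beads against GLAST only after cells with L1CAM, PSA-NCAM, ACSA-2, CD45 or Ter119 had been removed. The removal step, which takes out young neurons, was thus applied to 1 fraction only, and its part in the differences below cannot be told apart from that of the fraction itself.

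Granule neurons are the most numerous neurons of the brain. Their progenitors arise in the rhombic lip under the bHLH factor Atoh1, divide in the external granular layer after birth, and then switch on Neurod1 and the adhesion protein Cntn2 before they migrate inward past the Bergmann glia. Granule cells also secrete reelin, which guides the placement of Purkinje cells, and cerebellin, which holds the synapses between parallel fibers and Purkinje cells.

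The 7 members Atoh1, Neurod1, Neurod2, Barhl1, Pax6, Cbln1 and Reln had a probe well above background on all 6 arrays, Cntn2 was near background and Barhl2 stayed at background throughout. Within A+/G+ the highest and lowest samples of these 7 were at most 1.26 apart on the log2 scale (Cbln1). In A-/G+ the granule genes Atoh1, Neurod1, Neurod2, Barhl1 and Cbln1 were lower in replicates 1 and 2 but in replicate 3 reached the A+/G+ samples or nearly so. Pax6 ran the other way and was 2.90-fold higher in A-/G+, without overlap between the samples.

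The probes of 4 members are shown because the results turn on them. All are given 5′ to 3′ as on the array. The Pax6 probes are printed whole, and in the first of them the capitals mark a stop codon that closes a reading frame without an earlier stop. The first Neurod1 probe is also printed whole, and the others by their first 30 bases.
Pax6, bright probe: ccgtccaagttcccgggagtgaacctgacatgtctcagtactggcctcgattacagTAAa
Pax6, dim probe: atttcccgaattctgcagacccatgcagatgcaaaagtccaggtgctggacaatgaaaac
Neurod1, bright probe: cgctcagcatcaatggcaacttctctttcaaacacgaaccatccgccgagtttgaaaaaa
Neurod1, dim probe: tttgttgtgattttgtacagaatttttaat
Atoh1: tttagcaaatccagttgccattgctttatg
Cbln1, bright probe: cgtccagaagttttgattgtaccgaaacat

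The bright Pax6 probe lies at chr2:105536454-105536513 of mm9. The dim Pax6 probe spans 852 bases of mm9, chr2:105524098-105524949, with only 60 bases of sequence, so that it reads across an intron. The bright Neurod1 probe lies at chr2:79294309-79294368 and the dim one at chr2:79293621-79293680, both on the minus strand. The Atoh1 probe lies at chr6:64681161-64681220, and the bright Cbln1 probe at chr8:89992776-89992835 on the minus strand. Each gene is represented by the brightest of its probes by mean signal, and levels of different genes are not compared, since probes differ in brightness for the same amount of RNA.

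Signals are given as log2 of the normalized intensity, and differences as A+/G+ minus A-/G+ unless the higher fraction is named. The fractions were compared with limma over all probes, and a gene passed the test when the Benjamini-Hochberg adjusted p of its brightest probe was at most 0.05. Of all probes, 4.65% passed with a higher mean in A+/G+ and 4.64% with a higher mean in A-/G+. Of the 9 members, 0 passed as higher in A+/G+ and 1, Pax6, passed as higher in A-/G+. With medians at least 4-fold apart as a further limit, 1.53% and 0.399% of the probes passed and 0 members did in either direction. An exact permutation test of 3 arrays against 3 cannot give a p below 0.1 (two-sided). In bulk samples, fewer cells of a type and less RNA per cell cannot be told apart.

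The A-/G+ arrays were dimmer and less alike. The 75th percentile of the intensity was 329 to 332 on the A+/G+ arrays, but 55.9, 112 and 250 on A-/G+ replicates 1, 2 and 3, with 18331 to 24726 probes well above background compared with 26469 to 26653. The arrays of each fraction shared a slide of their own, and what is due to the slide and what to the fraction cannot be told apart. The sort was checked on the genes of its antigens. The signal of Atp1b2, which encodes the ACSA-2 antigen, was higher in every A+/G+ sample, and that of Slc1a3, which encodes GLAST, was well above background on all arrays. Slc1a3 was higher in A-/G+ by 1.19, which did not pass with all arrays (adjusted p = 0.0733, limma) and passed without A-/G+ replicate 3 (adjusted p = 0.0111, limma).

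**Figure D1:**
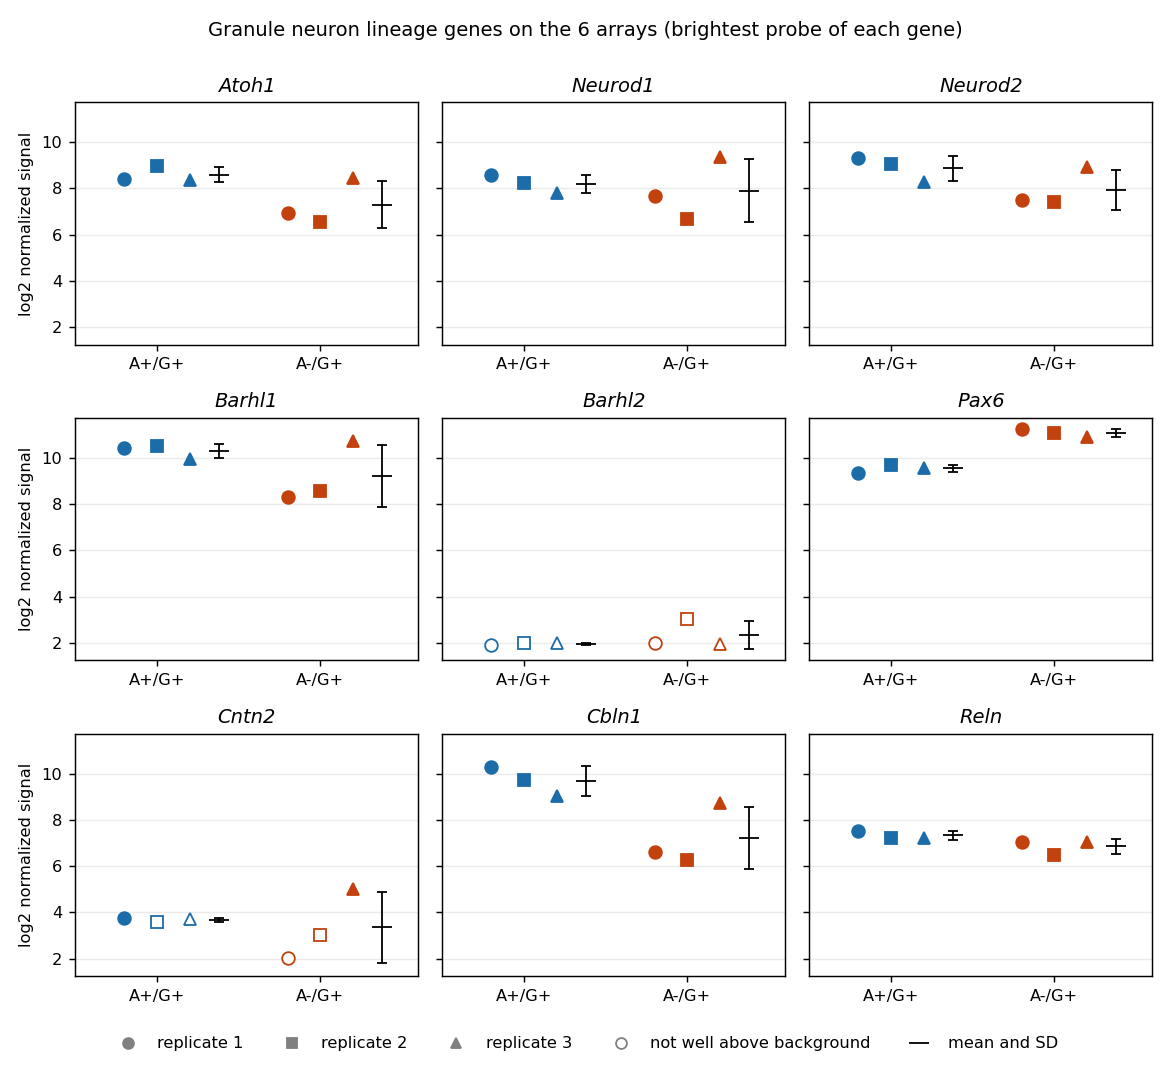
Log2 normalized signal of the brightest probe of the 9 genes (1 panel each) in the A+/G+ and A-/G+ samples, with symbols for replicates 1, 2 and 3, open symbols where the probe was not well above background, and the mean with SD beside them. For Atoh1, Neurod1, Neurod2, Barhl1 and Cbln1 the triangle of A-/G+ replicate 3 lies above the other A-/G+ samples, whereas all 3 A-/G+ samples of Pax6 lie above 10.9 and all A+/G+ samples below 9.71.

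Atoh1 is the factor without which granule progenitors do not form. Its signal was 8.42, 8.96 and 8.39 in A+/G+ replicates 1, 2 and 3 and 6.92, 6.53 and 8.45 in the A-/G+ replicates. A-/G+ replicate 3 thus lay within the A+/G+ range, while replicates 1 and 2 lay below every A+/G+ sample. The means differed by 1.29 (standard error 0.555), which is 2.44-fold, and Atoh1 did not pass the test (adjusted p = 0.263, limma). Without A-/G+ replicate 3, with 2 arrays left in that fraction, the difference was 1.86 and passed (adjusted p = 0.0219, limma). This array is set apart, here and elsewhere, because these same genes were high on it. Leaving it out thus widens their differences and narrows the spread within A-/G+ by construction. The fits without it are a description and no separate evidence, and they rest on the 2 dimmest arrays.

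Barhl1, a homeobox factor that acts downstream of Atoh1 in migrating granule cells, was likewise lowest in A-/G+ replicates 1 and 2. The bright probe gave 10.42, 10.53 and 9.97 in A+/G+ and 8.33, 8.56 and 10.74 in A-/G+, so that A-/G+ replicate 3 was the highest of all 6 samples. The difference of the means was 1.10 (standard error 0.711, adjusted p = 0.456, limma). It was 1.87 without A-/G+ replicate 3 (adjusted p = 0.0165, limma). The second Barhl1 probe was also highest in A-/G+ replicate 3, at 9.42, with every other sample between 6.80 and 8.75. The related gene Barhl2 exceeded background clearly on none of the 6 arrays, with signals of 1.92 to 3.03, and no difference can be given for it.

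Neurod1 and Neurod2 are bHLH factors of granule cells that leave the cell cycle and mature. The bright Neurod1 probe gave 8.58, 8.25 and 7.80 in A+/G+ and 7.67, 6.67 and 9.37 in A-/G+. The highest sample was again A-/G+ replicate 3, 4.61-fold above the mean of replicates 1 and 2 of that fraction, and the means of the fractions differed by 0.31 (standard error 0.741, adjusted p = 0.82, limma). The dim Neurod1 probe gave 6.54, 6.11 and 5.51 in A+/G+ and 6.79 in A-/G+ replicate 3, but was not well above background on A-/G+ replicates 1 and 2. Only a bound can therefore be given for the dim probe, 1.17-fold or more toward A+/G+. It holds for the means only, since the lowest signal well above background on A-/G+ replicate 1 was 5.72, above A+/G+ replicate 3. Here and below, the adjusted p beside such a bound is that of the fit on the measured signals, including those near background. For the dim probe it was 0.454 (limma). Without A-/G+ replicate 3 the bright probe did not pass (difference 1.04, adjusted p = 0.205, limma).

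For Neurod2 the signals were 9.31, 9.05 and 8.27 in A+/G+ and 7.48, 7.41 and 8.93 in A-/G+. A-/G+ replicate 3 lay inside the A+/G+ range. The difference was 0.94 with all samples (standard error 0.528, adjusted p = 0.388, limma) and 1.43 without A-/G+ replicate 3 (adjusted p = 0.0793, limma), and did not pass in either fit.

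Cbln1, which encodes the secreted cerebellin precursor, showed the widest gap between the means. The bright probe gave 10.30, 9.74 and 9.04 in A+/G+ and 6.60, 6.29 and 8.75 in A-/G+, so that the fractions did not overlap. Such an order, with every A+/G+ sample above every A-/G+ sample, was found for 12.7% of all probes. The difference was 2.48 (standard error 0.772), which is 5.57-fold, but the spread within A-/G+ was 1.34 (SD, n = 3) and the gene did not pass (adjusted p = 0.134, limma). Without A-/G+ replicate 3 the difference was 3.25 and passed (adjusted p = 0.0212, limma), with medians 9.83-fold apart. The second Cbln1 probe gave 6.43, 6.03 and 5.52 in A+/G+ and 4.96 in A-/G+ replicate 3, and it was not well above background on the other A-/G+ arrays. The fold toward A+/G+ was 1.72 or more (adjusted p = 0.0695, limma), the bound being set against the lowest signal that was well above background on each A-/G+ array, or the probe's own where that was higher. That lowest signal was 5.72 on A-/G+ replicate 1, above this probe in A+/G+ replicate 3, so the bound holds for the means only.

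Reln, the gene of the glycoprotein reelin, differed little. Its signal was 7.54, 7.22 and 7.24 in A+/G+ and 7.05, 6.49 and 7.07 in A-/G+, and A-/G+ replicate 3 did not stand out. Every A+/G+ sample was above every A-/G+ sample, but the difference of 0.46 (standard error 0.2, 1.38-fold) did not pass (adjusted p = 0.264, limma). Cntn2, the adhesion molecule TAG-1 of granule cells that have just left the cell cycle, was at or near background. Its brighter probe, which spans 1269 bases of mm9 and so reads across introns, was well above background on A+/G+ replicate 1 at 3.75 and on A-/G+ replicate 3 at 5.02, and on no other array. The other Cntn2 probe was well above background only on A-/G+ replicate 3, at 4.72.

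Pax6, a paired-box and homeobox factor of granule progenitors and granule neurons that is also known from radial glia, was the only member to pass the test. The bright probe gave 9.37, 9.70 and 9.57 in A+/G+ and 11.24, 11.10 and 10.92 in A-/G+. The samples of each fraction lay close together, at 9.55 ± 0.17 (SD, n = 3) and 11.09 ± 0.16 (SD, n = 3). The difference was 1.54 toward A-/G+ (standard error 0.129, adjusted p = 0.0073, limma) and by 1.62 without A-/G+ replicate 3 (adjusted p = 0.00922, limma). An order with every A-/G+ sample on top was found for 24.3% of all probes. The dim Pax6 probe also had every A-/G+ sample on top, with 5.35, 5.71 and 5.58 in A+/G+ and 6.08, 6.68 and 6.19 in A-/G+. Its difference of 0.77 toward A-/G+ did not pass (adjusted p = 0.0829, limma).

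**Figure D2:**
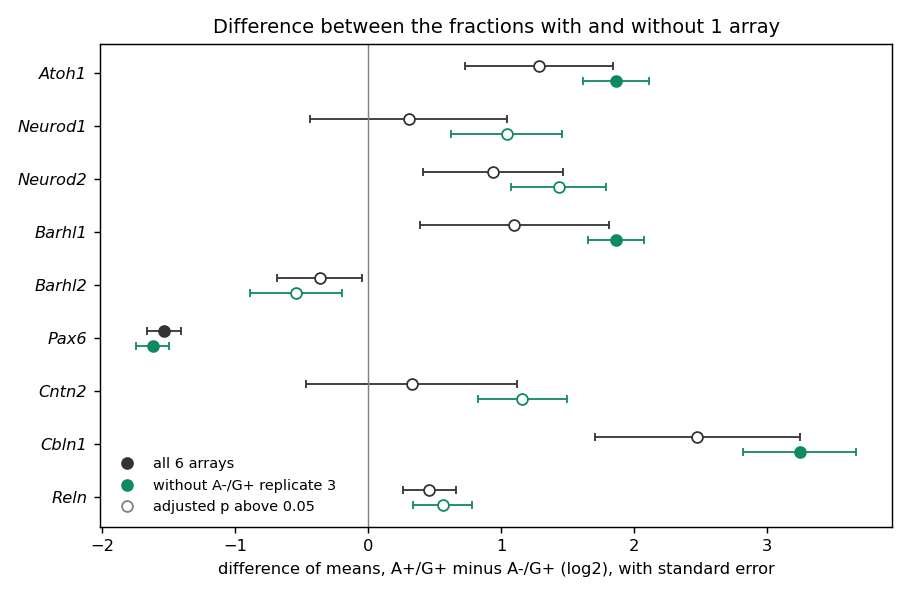
Difference of the means of the fractions (A+/G+ minus A-/G+, log2) with its limma standard error for the brightest probe of each gene, over all 6 arrays (black) and without A-/G+ replicate 3 (green), with open symbols where the adjusted p was above 0.05. Over all arrays Pax6 alone is filled, and without the 1 array Atoh1, Barhl1 and Cbln1 are filled as well, while the values of Barhl2 and Cntn2 are differences at or near background.

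Which arrays set the pattern was then described for the 9 genes together. A-/G+ replicate 3 was more than 1 on the log2 scale above both other A-/G+ samples for 5 of the 7 members that were well above background on all arrays, Atoh1, Neurod1, Neurod2, Barhl1 and Cbln1. The same was found for 1.98% of the 17944 probes with a signal well above background on every array, and for 5.25% of all probes. Without this array 3 of the 9 members passed as higher in A+/G+, Atoh1, Barhl1 and Cbln1, where 7.97% of all probes did, and Pax6 still passed toward A-/G+, where 8.22% did. With the 4-fold limit as well, 1 member, Cbln1, passed as higher in A+/G+, where 2.62% of all probes did, and 0 as higher in A-/G+, where 0.88% did. With any other array left out, 0 members passed as higher in A+/G+. In A+/G+, replicate 3 was the lowest sample for 5 members, Atoh1, Neurod1, Neurod2, Barhl1 and Cbln1, compared with 34.2% of the probes well above background on all arrays.

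A-/G+ replicate 3 was also the brightest A-/G+ array. When each array was aligned at its 75th percentile and not quantile normalized, Atoh1 gave 6.96, 6.54 and 8.46 in A-/G+, Barhl1 8.29, 8.57 and 10.78, and Cbln1 6.67, 6.29 and 8.75. The order of the samples and nearly the values were the same on that scale. Both scales bring the arrays together at that percentile, so near agreement of bright probes follows from the method. The part of array brightness in these values was not tested.

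Other genes of the lineage were taken from lists by stage. Of 15 genes of granule progenitors, 3 passed as higher in A+/G+ and 4 as higher in A-/G+. The list had a median difference of -0.13 where that of all probes was -0.04. The 3 with the widest difference were Meis2, Zic2 and Rgs16. Meis2 was well above background on 1 of the 3 A-/G+ arrays and differed 10.8-fold or more toward A+/G+ (adjusted p = 0.0187, limma). Zic2 differed by 2.09 toward A-/G+ (adjusted p = 0.0224, limma) and Rgs16 by 1.90 toward A+/G+ (adjusted p = 0.0132, limma). Meis2 is also a gene of other neurons, and Zic2 is a zinc finger factor of dorsal neural progenitors. In this list 14 genes had a signal well above background in every A-/G+ sample. Replicate 3 stood more than 1 above both other A-/G+ samples for 1 of these.

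Of 15 genes of postmitotic granule cells, 0 passed as higher in A+/G+ and 1 as higher in A-/G+, Sema6a, which encodes a guidance protein (difference 0.99 toward A-/G+, adjusted p = 0.0231, limma). In this list 8 genes had a signal well above background in every A-/G+ sample. Replicate 3 stood more than 1 above both others for 1 of these, Cadps2, a gene of secretory vesicle release. Over all 15 genes the same was found for 7, compared with 5.25% of all probes. Apart from Cadps2, these were not well above background on every A-/G+ array. Of 12 genes of mature granule neurons, 2 passed as higher in A+/G+, Kcnd2 and Vsnl1, and 1 as higher in A-/G+, Etv1. The potassium channel gene Kcnd2 had the widest gap, 4.39 (adjusted p = 0.0182, limma). No A-/G+ sample had Vsnl1 well above background. It passed on measured signals of 5.30, 5.24 and 4.96 in A+/G+ and 2.15, 2.32 and 3.80 in A-/G+ (adjusted p = 0.0478, limma). On A-/G+ replicate 1 the lowest signal well above background was 5.72, above every A+/G+ signal of Vsnl1. The bound of 1.20-fold or more toward A+/G+ therefore holds for the means only. Of the 12 genes, 4 were at background on every array, among them Gabra6, which defines mature granule neurons, and Cbln3.

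The partners of the secreted and adhesion members were measured too. Among 10 genes of the reelin pathway 1 passed, the receptor gene Lrp8, with a difference of 0.77 toward A+/G+ (adjusted p = 0.0233, limma). The other reelin receptor gene, Vldlr, and Dab1, which encodes the adaptor that both receptors act through, had higher means in A-/G+ by 0.54 and 0.93 and did not pass (adjusted p = 0.13 and 0.0695, limma). Without A-/G+ replicate 3 both passed (adjusted p = 0.0103 and 0.0107, limma). Among 7 genes around cerebellin, 2 passed as higher in A+/G+ and 1 as higher in A-/G+. Nrxn3, which encodes a presynaptic partner of cerebellin, differed by 2.54 toward A+/G+ (adjusted p = 0.00544, limma). Among 7 genes of partners and relatives of Cntn2, App differed by 0.82 toward A+/G+ (adjusted p = 0.00437, limma) and Cntn1 by 0.73 toward A-/G+ (adjusted p = 0.046, limma).

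Of 17 bHLH genes related to Atoh1 and Neurod1, 0 passed as higher in A+/G+ and 3 as higher in A-/G+. Among the latter were Ptf1a, a factor of GABAergic progenitors, by 2.69 and Tcf4, an E protein that pairs with such factors, by 0.50 (adjusted p = 0.0134 and 0.0425, limma).

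The genes of the removal antigens were set beside these values. L1cam, whose product was used to remove granule neurons from A-/G+, gave 5.95, 5.64 and 5.96 in A+/G+ and 4.79 in A-/G+ replicate 3, and it was not well above background on A-/G+ replicates 1 and 2. L1cam differed 1.62-fold or more toward A+/G+ and did not pass (adjusted p = 0.0968, limma). This bound holds for the means only. On A-/G+ replicate 1 the lowest signal well above background, 5.72, exceeded L1cam in A+/G+ replicate 2. St8sia4, 1 of the enzymes that build PSA on NCAM, gave 8.35, 8.03 and 8.31 in A+/G+ and 5.29, 6.06 and 7.75 in A-/G+, where replicate 1 was not well above background. St8sia4 thus had its highest A-/G+ signal in replicate 3, like Atoh1, Neurod1, Neurod2, Barhl1 and Cbln1 but unlike Pax6. Replicate 3 was the highest A-/G+ sample for 28.7% of the brightest probes of all named genes. For L1cam the order within A-/G+ cannot be given. Its 4.79 lay below the lowest signals well above background on replicates 1 and 2, which were 5.72 and 4.95. Ncam1 itself lay between 12.30 and 12.85 in all samples. Ptprc, which encodes CD45, was at background on every array. Of the 6 genes in this list, 1 passed, Atp1b2, higher in A+/G+.

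Markers of some other cells moved with Atoh1, Neurod1, Neurod2, Barhl1 and Cbln1, whereas those of others did not. Of 15 pan-neuronal genes, 0 passed with all arrays, but 7 passed as higher in A+/G+ and 1 as higher in A-/G+ without A-/G+ replicate 3. The tubulin gene Tubb3 gave 9.58, 9.41 and 11.47 in A-/G+ and 10.87 to 11.63 in A+/G+, and Dcx, a gene of migrating neurons, gave 7.97, 8.03 and 9.81 in A-/G+ and 9.46 to 10.20 in A+/G+. A-/G+ replicate 3 was more than 1 above both other A-/G+ samples for 7 of the 13 genes with a signal well above background in all A-/G+ samples, to which such counts are limited below. Expressed as log2 of the summed signal of the list, A+/G+ lay between 14.23 and 15.02, A-/G+ replicates 1 and 2 at 13.63 and 13.41, and A-/G+ replicate 3 at 14.45. Such a sum mostly follows the brightest probes of its list, here and below.

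The endothelial list behaved alike, with 3 of 4 genes more than 1 higher in A-/G+ replicate 3 than in both other A-/G+ samples and a summed signal of 10.57, 10.82 and 12.95 in A-/G+ compared with 12.92 to 13.50 in A+/G+. With all arrays 1 of its 7 genes passed, Cdh5, higher in A+/G+. In the same way 1 of 2 erythroid and 2 of 6 oligodendrocyte lineage genes stood out. Of all 5 erythroid genes 0 passed, and of all 8 oligodendrocyte lineage genes 3 passed as higher in A+/G+ and 1 as higher in A-/G+. The summed signals in A-/G+ were 11.95, 11.31 and 12.93 for the erythroid list, where A+/G+ lay between 13.11 and 13.98, and 11.55, 11.58 and 12.68 for the oligodendrocyte lineage, where A+/G+ lay between 13.88 and 14.16. The erythroid sum was nearly that of Hba-a1 alone, with 11.86, 11.18 and 12.82 in A-/G+. Most of the endothelial sum came from Cldn5, with 9.88, 10.15 and 12.52 in A-/G+.

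Among Purkinje genes 0 of 7 stood out, while of all 13 genes 7 passed as higher in A+/G+ and 1 as higher in A-/G+. Of 6 GABAergic interneuron genes 1 stood out, and of all 10 there were 2 passing as higher in A+/G+ and 3 as higher in A-/G+. Of 14 astroglial genes 0 were highest in A-/G+ replicate 3, which gave a summed signal of 17.42 compared with 17.78 and 18.07 in the other A-/G+ samples and 17.82 to 17.91 in A+/G+, and 3 passed in each direction. Of 3 microglial genes 0 stood out and of all 9 genes 0 passed, with summed signals of 10.26 to 11.16 in A+/G+ and 10.73 to 11.93 in A-/G+. On A-/G+ replicate 1, where the microglial sum was highest, Itgam alone gave 11.66. Eomes, the gene that defines unipolar brush cells and sits in a list of 8 genes of these and of nuclear neurons of which 0 passed, gave 6.37 to 7.58 in A+/G+ and 6.78 in A-/G+ replicate 3, and was not well above background on the other A-/G+ arrays. The part of such cells in the values of the granule genes was not tested.

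**Figure D3:**
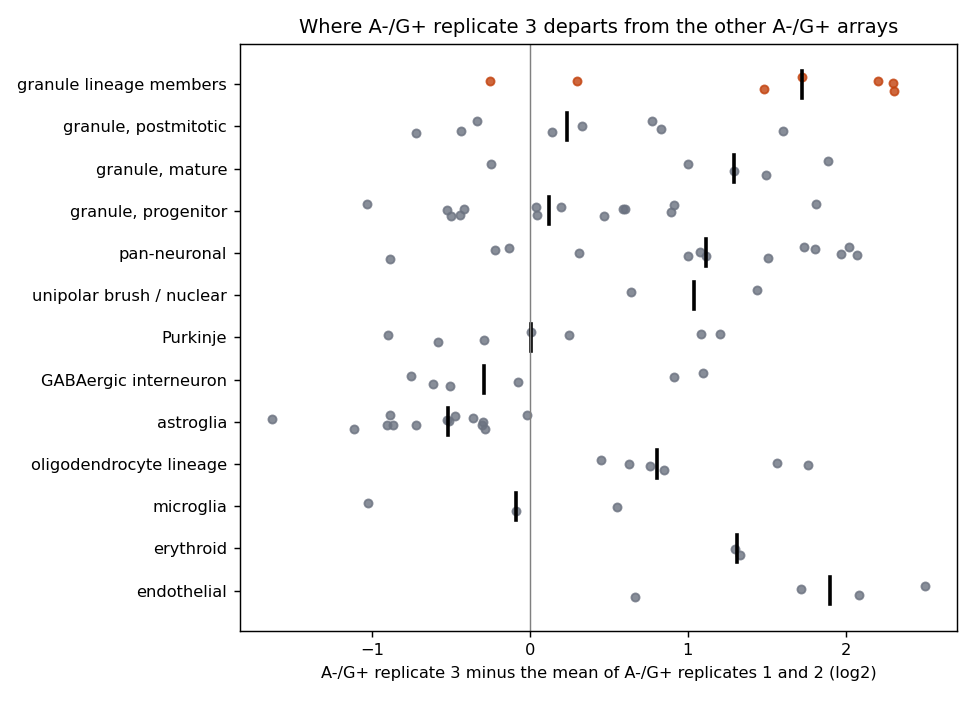
Signal of A-/G+ replicate 3 minus the mean of A-/G+ replicates 1 and 2 (log2), with a point for each gene of a list that exceeded background clearly on each of the 3 A-/G+ arrays and a bar at the median of the list. The 7 granule lineage genes shown have a median of 1.73 and the 4 endothelial genes one of 1.90, whereas the 14 astroglial genes lie below 0 with a median of -0.52.

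To see which other genes had the profile of a member, the brightest probes of 3539 genes that exceeded background clearly on each array and varied by at least 1 on the log2 scale were ranked by Pearson's r over the 6 arrays. The values of r describe 6 samples of 2 fractions that share slides and depth. For Barhl1 the closest were Nrn1 (r = 0.997), a gene of neurite growth, Tmem178 (r = 0.995) and Gm2694 (r = 0.986). For Neurod2 they were the axon growth gene Gap43 (r = 0.991), Gm2694 (r = 0.985) and Dcx (r = 0.979). For Neurod1 they were Scrt2 (r = 0.996), which encodes a zinc finger factor of young neurons, Zfpm1 (r = 0.995) and Pdxp (r = 0.987).

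For Cbln1 the closest were Stmn2 (r = 0.996), a gene of growing axons, Tspan4 (r = 0.991) and the globin gene Hbb-b2 (r = 0.991). Hbb-b2 gave 6.41, 6.01 and 9.98 in A-/G+ and 10.68 to 11.58 in A+/G+. For Atoh1 they were Tmem173 (r = 0.99), Clmp (r = 0.983) and Sp5 (r = 0.976), and among the closest to Reln were Pfkp (r = 0.985) and Gm12271 (r = 0.982). For Pax6 they were Man1c1 (r = 0.999), Trim59 (r = 0.999) and 6530402F18Rik (r = 0.999). Between the members, r was 0.946 for Atoh1 and Barhl1 and 0.952 for Neurod2 and Cbln1, but -0.755 for Atoh1 and Pax6. Barhl2 and Cntn2 were left out of this account because they lay at or near background.

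The promoters of the members were read from RefSeq sequences of GRCm38.p6. For 8 of the 9 genes 10 promoters were found, and Cbln1 was not among them. The 250 bases before the start were searched on both strands for the E-box CANNTG, the kind of site that bHLH factors such as Atoh1 and Neurod1 bind, and for 3 of its versions, each of which is also a match to CANNTG. An E-box was in 8 of the 10 promoters and in 66.2% of all 32851 promoters. CAGCTG was in 2, both of Barhl1, and in 13.0% of all promoters. The version CAGATG was in 1, that of Neurod2, and in 14.4% of all. The version CAGGTG was in 1, that of Barhl2, and in 17.2% of all. The window of Atoh1 held no E-box. The promoters of Barhl1, at chr2:28912496-28912745, and Neurod2, at chr11:98329646-98329895, are shown as examples that hold an E-box. Whether these sites bear on the signals was not tested. Both are on the minus strand, are printed 5′ to 3′ and have each E-box in capitals.
Barhl1: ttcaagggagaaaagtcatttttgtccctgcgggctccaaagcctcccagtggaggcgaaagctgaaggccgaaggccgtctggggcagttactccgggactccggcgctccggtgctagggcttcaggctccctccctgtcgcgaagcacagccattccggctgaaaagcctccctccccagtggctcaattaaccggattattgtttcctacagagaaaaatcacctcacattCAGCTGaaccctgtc
Neurod2: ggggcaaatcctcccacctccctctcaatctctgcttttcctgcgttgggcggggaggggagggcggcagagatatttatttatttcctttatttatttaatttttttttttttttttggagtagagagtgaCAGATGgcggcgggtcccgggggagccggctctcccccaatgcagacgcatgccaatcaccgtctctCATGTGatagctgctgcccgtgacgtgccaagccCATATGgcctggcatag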

How the data were processed

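RNA of 3 A+/G+ and 3 A-/G+ samples was labeled with Cy3 and hybridized to Agilent mouse arrays, 1 per sample. The authors deposited the intensity of each spot from Agilent Feature Extraction 10.7.3.1, and quantile normalized log2 values in a further table, used here as an alternative. The processed intensities of 59305 gene spots were taken to log2 without spots marked as outliers, quantile normalized, and averaged over the spots of a probe. The 55681 probes were compared with limma 3.58.1 in R 4.3.3, unfiltered, with Benjamini-Hochberg adjustment, in place of the paper's t-test. A probe was well above background on an array when most of its spots were. The fit was also run on simulated data with independent noise of equal spread in both fractions. Atoh1, Neurod1, Neurod2, Barhl1 and Cbln1 spread more in A-/G+, a setting that the simulation did not hold. The number of arrays limits the precision. Named are the 9 members with every probe, up to 3 passing genes of each lineage or partner list by size of difference, defining genes of the sort and of cell types, and the 3 closest profiles of each member. Vldlr, Dab1, St8sia4, Cdh5, Gabra6, Cbln3, Cldn5, Hba-a1 and Itgam were added after their values were seen. Some genes that this rule names are not reported here. The members and the lists, with 170 of 171 other genes on the array, were chosen with earlier results of these data known. Probe positions are on mm9 as deposited. Alternatives were a 75th percentile shift, normexp (offset 50), the values of the authors' own table, leaving out dim probes, trended and robust variance in limma, the t-test of the methods, the mean of all probes, outlier spots kept, a 2-fold limit, a replicate block and each array left out.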

Additional observations from a re-analysis of the deposited data

How the results depend on the processing

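The difference of Pax6 kept its direction under all alternatives, between -1.62 and -1.15 (A+/G+ minus A-/G+, log2). It passed the test in each but the fit with the replicate number as a block (adjusted p = 0.0742, limma), where 0 members passed as higher in A-/G+ and 0 of the other list genes passed in either direction. The deviations of same-numbered samples correlated with r = 0.0877, 0.0555 and 0.00577. For replicates 1 and 2 this was the best match, and for replicate 3 it was not. Whether samples of the same number belong together cannot be decided from so few replicates. With single arrays left out, 0 to 3 members passed as higher in A+/G+ and 1 as higher in A-/G+, and 0 to 1 and 0 passed with medians 4-fold apart. Only leaving out A-/G+ replicate 3 gave more than 0 as higher in A+/G+. With a 2-fold limit of the medians, 1 member passed as higher in A-/G+. The mean difference of Cntn2 turned to -0.54 with the 75th percentile shift and to -0.025 with normexp, and ran from -0.34 to 1.16 with single arrays left out. That of Neurod1 ran from -0.31, without A-/G+ replicate 2, to 1.04, and none of these passed. The 75th percentile shift moved the median difference of all probes to -1.02. Of the distinct genes in the other lists, 26 passed as higher in A+/G+ and 16 as higher in A-/G+. With the t-test of the methods these were 16 and 6, and single arrays left out gave 9 to 51 and 3 to 25, where the fit without A-/G+ replicate 3 gave 51 and 25 and that without A+/G+ replicate 3 gave 9 and 4. Each single array left out moved at least 1 of these counts by more than 1.5 times. For those higher in A-/G+ the 75th percentile shift gave 10, normexp 26 and the filter on dim probes 25. Dim signals on A-/G+ replicates 1 and 2 limit what can be said of Cntn2, Barhl2 and the dim probes of Neurod1 and Cbln1. The cause of these changes was not tested.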
